A study of Mus musculus with 18 samples.

Results

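The transcripts of 10 regulators of mitochondrial biogenesis were followed in skeletal muscle of mice aged 2, 20 or 28 months. They were chosen by name: the coactivators Ppargc1a and Ppargc1b (PGC-1α and PGC-1β) and their muscle partner Perm1, the estrogen-related receptors Esrra, Esrrb and Esrrg, the lipid-sensing receptors Ppara and Ppard, the nuclear respiratory factor Nrf1, and the mitochondrial transcription factor Tfam. All 10 were among the 23420 genes of the muscle RNA-seq table (Perm1 under its older name 2310042D19Rik), and all 10 were among the 13178 genes with a mean normalized read count of at least 10, which were tested. The mice were female C57BL/6J, for which the labels name no transgene or treatment, and were young (2 m), aged (20 m) or very old (28 m). Whole hindlimb muscle of 3 mice per age gave 9 RNA-seq libraries, 1 per mouse, so fibre types and non-muscle cells were measured together. DNA methylation was read out in mice of the same ages by capture with a methyl-CpG-binding domain (MBD-seq), in hindlimb muscle and in splenic T cells. The DNA of 3 mice was pooled into 1 pool per age and tissue. The muscle pools were captured in 2 rounds, but the deposited values used here are 1 per age and tissue.

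PGC-1 coactivators carry no DNA-binding domain of their own. They are recruited by nuclear receptors and by NRF1, and so raise the transcription of genes for the respiratory chain, for fatty acid oxidation and for copying of the mitochondrial genome, the last through TFAM. In muscle the pathway is known for its response to endurance exercise, cold and fasting and for its high activity in oxidative fibres, and AMP-activated kinase, calcium signalling, CREB and MEF2 are its known inputs.

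Reads assigned to genes numbered 20203833 to 71115244 per library. The 3 libraries numbered 3 (1 per age) stood apart: the ribosomal precursor Rn45s took 8.81% to 10.4% of their gene reads, against 23.96% to 30.42% in the other 6, so values within these 2 sets are given where a result rests on them. All 9 skeletal muscle markers were detected in every library, while the 5 T-cell markers in the table summed to at most 28.3 normalized read counts in any library. Of 7 adipocyte markers 5 fell at 20 months and 2 at 28 months, where 7.13% and 6.24% of all tested genes fell. Their summed level was 7455 to 11323 at 2 months, 4888 to 5485 at 20 months and 4761 to 6996 at 28 months. Of 6 fibroblast and matrix genes 3 fell at each age, against the same shares of all tested genes. Their sum went from 51087 to 106411 at 2 months to 21889 to 24764 at 20 months and 21815 to 29894 at 28 months. The part of these cell types in the results below was not tested. In such bulk tissue, fewer cells or fibres of a type and less RNA per cell cannot be told apart.

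Esrrb and Esrrg rose with age, by more than 2-fold, and had done so by 20 months. Ppara rose at 20 months. The other 7 regulators, Ppargc1a included, did not pass this test in any comparison, although Ppargc1a, Tfam and Perm1 did so under some of the other settings given with each. At 20 against 2 months 3 of the 10 regulators were called, all upward, where 9.42% of all tested genes were called upward and 7.13% downward (limma on log2 of the normalized read count plus 1, Benjamini-Hochberg adjusted p under 0.05). At 28 against 2 months 2 of 10 were called, again upward, against 7.53% of all genes upward and 6.24% downward. Between 28 and 20 months limma called 0 of 10, against 0.379% of all genes, with 2 (Tfam and Ppara) at an unadjusted p under 0.05 and 0 called by edgeR or DESeq2 on the recovered reads. With 20 and 28 months joined and set against 2 months, 3 of 10 rose, against 11.2% of all genes, and the same 3 had all 6 later libraries above all 3 young ones, as did 10.5% of all genes. By the rule of a fold change over 2 with an unadjusted p under 0.05, Esrrb and Esrrg passed at both later ages, where 5.17% and 5.14% of all genes passed.

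**Figure D1:**
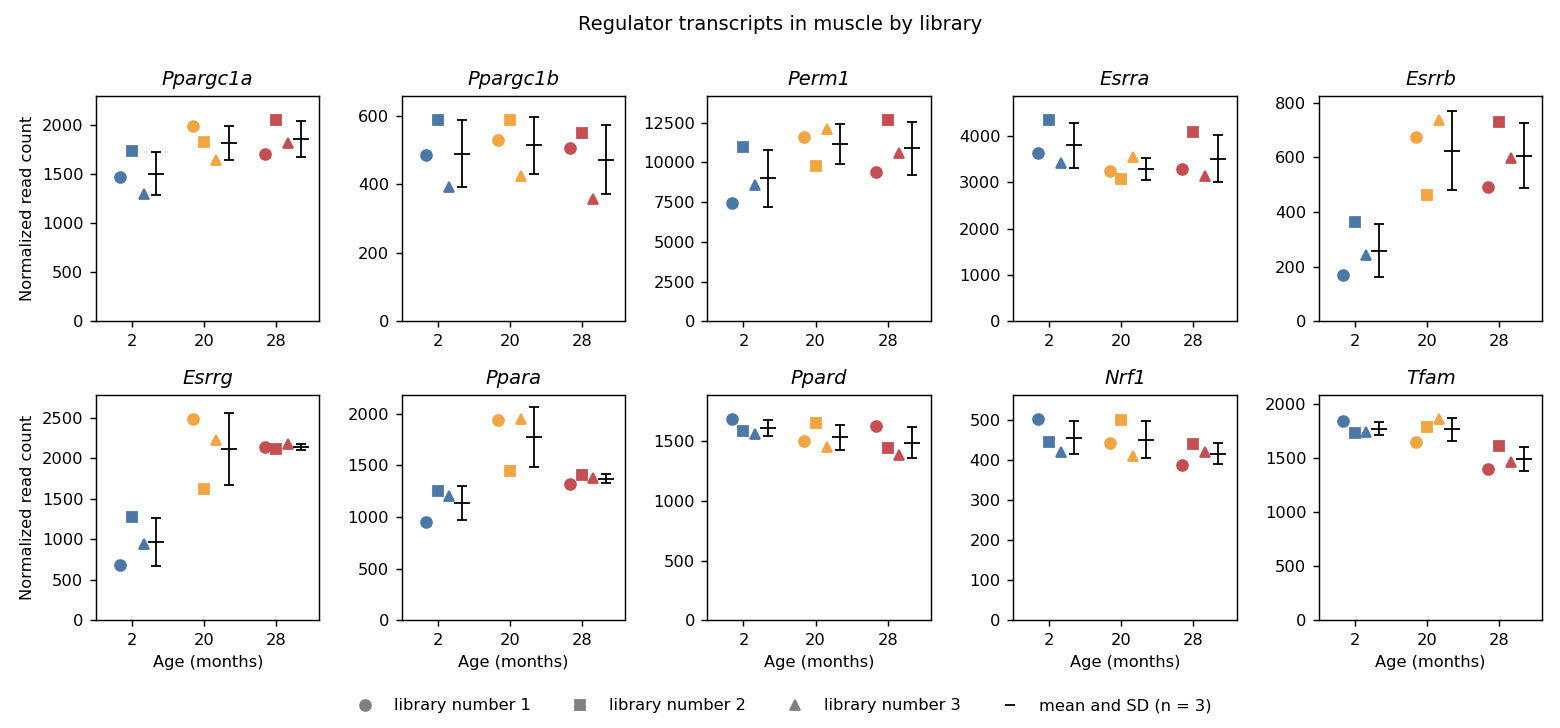
Normalized read count (vertical axes, each from 0) of the 10 regulators against age in months, with 1 symbol per library (symbol shape gives the library number) and the mean with SD of 3 libraries beside them. The 3 libraries of 2-m muscle lie below all 6 later ones for Esrrb, Esrrg and Ppara, and the 3 libraries of 28-m muscle lie below all others for Tfam.

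**Figure D2:**
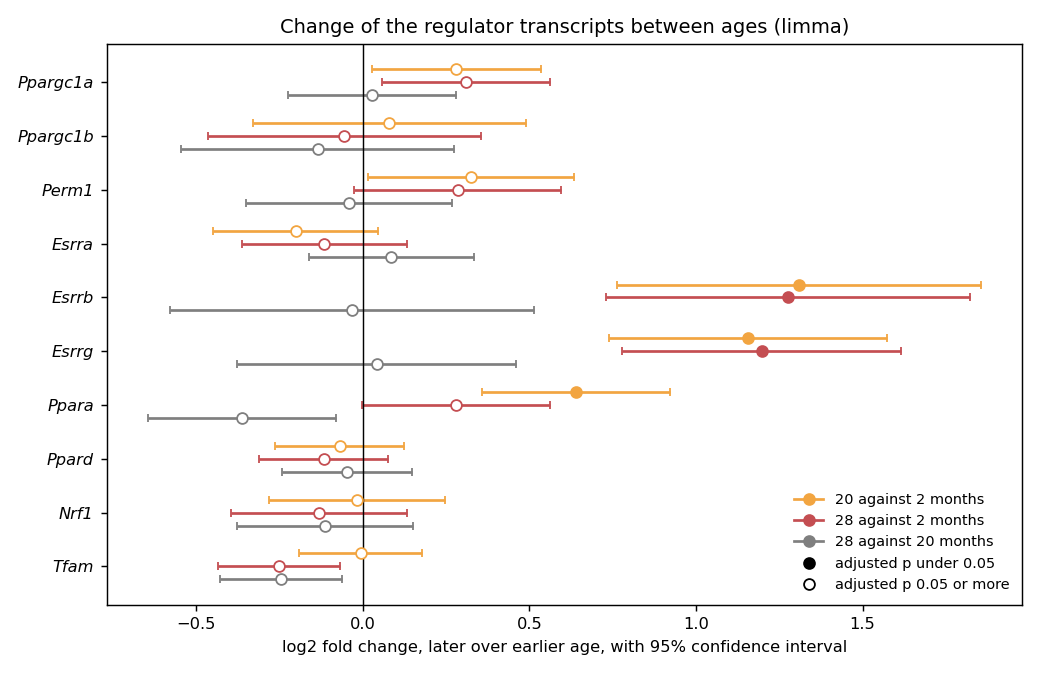
log2 fold change of each regulator between ages (horizontal axis, later over earlier age) with its 95% confidence interval from limma, for 20 against 2, 28 against 2 and 28 against 20 months. Filled points (Esrrb and Esrrg at both later ages, Ppara at 20 months) have an adjusted p under 0.05, and every interval of the 28 against 20 month comparison but those of Ppara and Tfam spans 0.

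The order of the levels was compared per kilobase of exon (normalized read count divided by the RefSeq exon length of the gene, mean ± SD, n = 3). Perm1 was the most abundant in 2-m muscle, at 2339 ± 469 per kilobase, followed by Esrra at 1692 ± 219.5, and the libraries of these neighbours overlapped. Ppard (499.7 ± 21.2) and Tfam (453 ± 15.5) came next without overlap between them. Ppargc1a stood at 228 ± 33.6, Esrrg at 163 ± 50.4 and Ppara at 151 ± 21.9, and each of these overlapped its neighbour in this group of 3. Nrf1 (66.3 ± 6.12), Esrrb (56.0 ± 21.1) and Ppargc1b (47.0 ± 9.41) were the least abundant, and neighbours among them overlapped as well. By 28 months Esrrg had reached 362 ± 6.11 per kilobase, above Ppargc1a (282 ± 27.3) with no overlap of libraries and level with Tfam (381 ± 28.2), whose libraries it overlapped. Esrrb had moved above Nrf1, at 131 ± 25.8 against 60.4 ± 3.77 per kilobase, and these no longer overlapped. Counts of reads behind single values ran from 76 (Esrrb, 2-m library 1) to 22264 (Perm1).

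The estrogen-related receptors are orphan nuclear receptors that bind the same DNA element and are the main partners of PGC-1 at genes of oxidative metabolism. Esrrg, which is known for its high level in slow and other oxidative fibres, lies on chromosome 1 (chr1:187609006-188214885, plus strand, GRCm38). Esrrb, known for its place in pluripotent cells, lies on chromosome 12 (chr12:86361117-86521628, plus strand). RefSeq lists 4 starts for Esrrg and 2 for Esrrb, and their promoters (250 bases before to 50 bases after each start, GRCm38.p6, RefSeq, plus strand) are shown because both transcripts rose and because these are the regions where DNA methylation was read out. Capitals mark each CpG, the dinucleotide whose methylation the capture depends on. The table holds 1 value per gene, so it does not say which start was used.
Esrrg start 1, chr1:187608756-187609055: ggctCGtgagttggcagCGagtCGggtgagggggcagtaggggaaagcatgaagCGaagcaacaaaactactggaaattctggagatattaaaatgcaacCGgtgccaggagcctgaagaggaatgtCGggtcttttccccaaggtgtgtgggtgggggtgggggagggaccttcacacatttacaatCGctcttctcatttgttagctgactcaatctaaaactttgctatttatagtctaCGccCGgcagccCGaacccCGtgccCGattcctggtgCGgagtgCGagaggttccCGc
Esrrg start 2, chr1:187651508-187651807: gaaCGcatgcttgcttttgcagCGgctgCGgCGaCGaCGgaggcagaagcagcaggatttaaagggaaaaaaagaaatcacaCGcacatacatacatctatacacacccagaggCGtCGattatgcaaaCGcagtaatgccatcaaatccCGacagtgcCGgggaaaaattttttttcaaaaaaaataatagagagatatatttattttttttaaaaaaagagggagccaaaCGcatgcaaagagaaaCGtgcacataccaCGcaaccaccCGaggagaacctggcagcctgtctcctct
Esrrg start 3, chr1:187651991-187652290: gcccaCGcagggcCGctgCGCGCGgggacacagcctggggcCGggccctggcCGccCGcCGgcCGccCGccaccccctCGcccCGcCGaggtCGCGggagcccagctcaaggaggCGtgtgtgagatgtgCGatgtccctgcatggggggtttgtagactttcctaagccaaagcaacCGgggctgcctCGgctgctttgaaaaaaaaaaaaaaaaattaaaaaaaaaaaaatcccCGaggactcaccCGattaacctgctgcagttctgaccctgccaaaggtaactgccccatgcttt
Esrrg start 4, chr1:187997577-187997876: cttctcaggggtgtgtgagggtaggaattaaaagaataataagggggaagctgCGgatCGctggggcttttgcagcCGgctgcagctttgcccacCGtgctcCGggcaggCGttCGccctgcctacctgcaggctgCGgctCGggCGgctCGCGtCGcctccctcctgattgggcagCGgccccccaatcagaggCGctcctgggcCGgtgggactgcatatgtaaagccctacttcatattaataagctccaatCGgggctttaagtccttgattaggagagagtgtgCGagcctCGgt
Esrrb start 1, chr12:86360867-86361166: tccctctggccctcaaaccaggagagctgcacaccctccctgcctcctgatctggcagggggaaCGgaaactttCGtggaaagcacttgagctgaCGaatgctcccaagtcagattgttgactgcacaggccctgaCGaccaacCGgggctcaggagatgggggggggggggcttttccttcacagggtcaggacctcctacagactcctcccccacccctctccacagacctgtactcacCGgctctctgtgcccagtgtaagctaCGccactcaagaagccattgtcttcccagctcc
Esrrb start 2, chr12:86421394-86421693: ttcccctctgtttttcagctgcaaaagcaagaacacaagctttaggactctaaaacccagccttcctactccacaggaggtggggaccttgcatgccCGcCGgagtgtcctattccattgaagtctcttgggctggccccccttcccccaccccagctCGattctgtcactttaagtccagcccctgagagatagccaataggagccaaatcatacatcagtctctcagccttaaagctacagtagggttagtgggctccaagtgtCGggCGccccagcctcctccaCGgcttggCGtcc
The 4 Esrrg promoters hold 15, 16, 22 and 19 CpGs and the Esrrb promoters 7 each, where the median of all 32851 promoters is 7. Start 1 of Esrrg has an exact MEF2 site 22 bases before the start, a motif found in 3.19% of all promoters of this length on either strand.

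Esrrg measured 682, 1278 and 938 normalized read counts in the 3 libraries of 2-m muscle. It measured 2488, 1628 and 2234 in 20-m muscle and 2141, 2112 and 2184 in 28-m muscle. Every later library was above every 2-m library, and the 28-m libraries were the closest together. The level rose 2.23-fold at 20 months (log2 fold change 1.16, SE 0.19, limma adjusted p = 0.00184) and 2.29-fold at 28 months (1.20, SE 0.19, adjusted p = 0.00156), while 28 against 20 months differed by 0.04 (95% CI -0.38 to 0.46). With the 6 later libraries set against the 3 young ones, a two-sided exact permutation test gave p = 0.0119, the smallest it can give at this size. The rise was 1.11 on the log2 scale in the libraries numbered 1 and 2 and 1.251 in those numbered 3 at 20 months, and 1.19 and 1.22 at 28 months.

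Esrrb was less abundant and rose as well. Its normalized read counts were 169, 363 and 243 at 2 months, 674, 461 and 738 at 20 months, and 491, 729 and 598 at 28 months. The lowest later library (461) was above the highest 2-m library (363). The rise was 2.48-fold at 20 months (log2 fold change 1.31, SE 0.25, limma adjusted p = 0.00446) and 2.42-fold at 28 months (1.28, SE 0.25, adjusted p = 0.00573). Between the later ages it differed by -0.03 (95% CI -0.58 to 0.51), and the exact permutation test of 6 later against 3 young libraries again gave 0.0119. Without the 3 libraries numbered 3 the log2 fold changes were 1.16 and 1.27 but the adjusted p became 0.0620 and 0.0607. In the libraries numbered 3 the log2 fold changes were 1.60 and 1.29.

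Esrra, the receptor of the family most tightly tied to PGC-1α in muscle, did not pass the test. It measured 3624, 4349 and 3409.7 normalized read counts at 2 months, 3249, 3069 and 3547 at 20 months, and 3294, 4084 and 3139 at 28 months, so that the ages overlapped. Its log2 fold change was -0.20 at 20 months (95% CI -0.45 to 0.05, limma adjusted p = 0.253) and -0.12 at 28 months (-0.36 to 0.13, adjusted p = 0.552). The exons of Esrra share 52 bases (2.32% of their length) with Trmt112 on the other strand, and the library kit did not keep the strand. The balance within the family differed between ages without overlap from 2 months: Esrra was 9.01 to 14.1 times as abundant per kilobase as Esrrg in the 2-m libraries, 3.45 to 4.99 times in the 20-m libraries and 3.80 to 5.12 times in the 28-m libraries. The ratio of Esrrg to Esrrb stayed between 2.26 and 3.39 in all 9 libraries. Among all tested genes the one whose profile over the 9 libraries was nearest to that of Esrrb was Esrrg itself (root mean square difference of centred log2 values 0.174, where the median gene stood at 0.736), followed by Apol6 (0.186) and Dach2 (0.188). Inpp4b (0.116) and Rab11fip5 (0.117) were nearest to Esrrg.

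The rise of Esrrg and Esrrb went with that of slow-fibre transcripts. Of 10 slow-fibre genes 9 rose at 20 months and 10 at 28 months, where 9.42% and 7.53% of all genes rose, and the slow myosin heavy chain Myh7 went from 2773, 44700.5 and 8400.4 normalized read counts at 2 months to 109827, 62731 and 88434 at 20 months and 107845, 80566 and 112463 at 28 months. The summed level of the slow genes was 18359 to 138648 at 2 months, 188015 to 329936 at 20 months and 232921 to 292326 at 28 months. For this sum, Esrrg and Esrrb alike the second 2-m library was the highest of its age and the second 20-m library the lowest. At 28 months the second library had the lowest slow sum and the lowest Esrrg but the highest Esrrb. Myh2, the myosin of oxidative fast fibres, rose by 0.80 and 0.70 on the log2 scale, and of 8 fast glycolytic genes 0 rose while 2 and 3 fell at 20 and 28 months, where 7.13% and 6.24% of all genes fell. Of 8 denervation genes 5 rose at 20 months and all 8 at 28 months, against the same 9.42% and 7.53% of all genes, with a summed level of 2573 to 3000.1 at 2 months, 3133 to 4218 at 20 months and 6553 to 7000.2 at 28 months. The part of fibre composition and of denervation in the rise of the receptors was not tested.

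**Figure D3:**
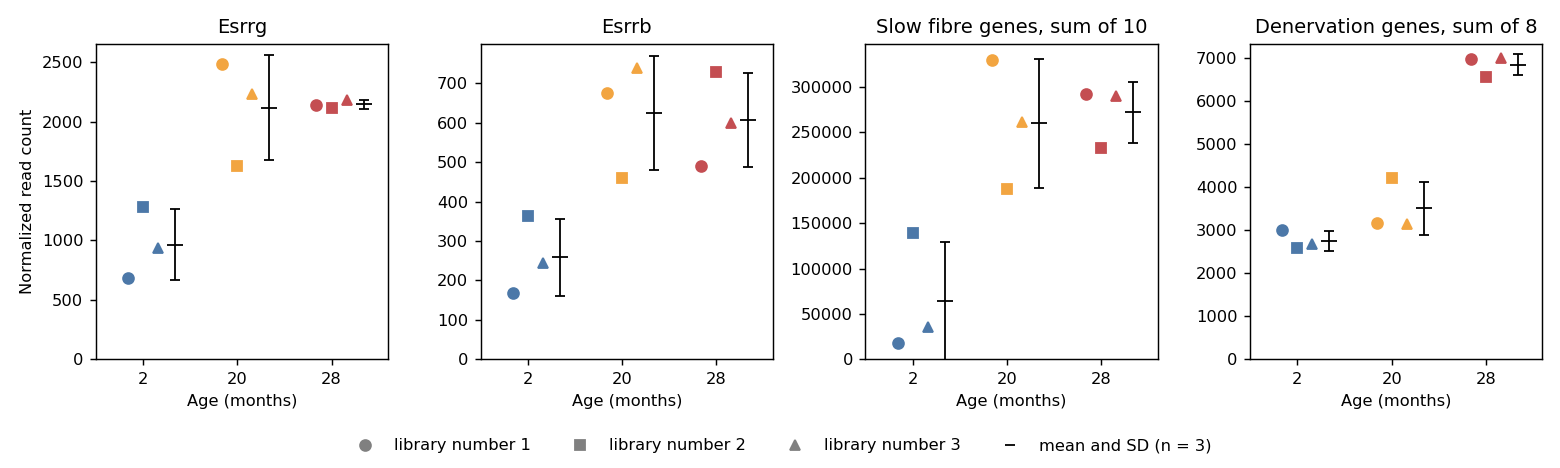
Normalized read count (vertical axes, each from 0) of Esrrg, of Esrrb, of 10 slow-fibre genes summed and of 8 denervation genes summed, against age in months, by library and with the mean and SD of 3 libraries. Esrrg, Esrrb and the slow sum are at their later level by 20 months, and the denervation sum is highest in the 3 libraries of 28-m muscle.

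Ppara encodes the receptor that, bound by fatty acids, switches on genes of fatty acid transport and oxidation. It lies at chr15:85735564-85806851 (plus strand, GRCm38), and a promoter of 1 of its RefSeq starts is shown because it alone among the 14 promoters of the regulators holds an NRF1 site, searched on both strands as GCGCA, any base, GCGC.
Ppara, chr15:85735526-85735825: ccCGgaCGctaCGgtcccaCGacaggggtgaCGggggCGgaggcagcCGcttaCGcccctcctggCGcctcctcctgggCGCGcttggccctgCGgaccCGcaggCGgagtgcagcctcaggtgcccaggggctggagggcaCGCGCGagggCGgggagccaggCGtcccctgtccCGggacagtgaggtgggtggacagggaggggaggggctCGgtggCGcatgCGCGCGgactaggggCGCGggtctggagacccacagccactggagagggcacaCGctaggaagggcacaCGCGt
The site begins 31 bases before the start and reads the same on both strands, and 4.6% of all promoters hold it. In 2-m muscle Ppara measured 947, 1255 and 1204 normalized read counts. In 20-m muscle it measured 1933, 1443 and 1948, and in 28-m muscle 1321, 1405 and 1379.7. The 3 ages did not overlap: all 20-m libraries were above all 28-m libraries, and these were above all 2-m libraries. Ppara rose 1.56-fold at 20 months (log2 fold change 0.64, SE 0.13, limma adjusted p = 0.00591). At 28 months the difference from 2 months was 0.28 (95% CI -0.003 to 0.56, adjusted p = 0.182) and that from 20 months -0.36 (-0.64 to -0.08, adjusted p = 0.335), and neither passed. Groups did not overlap for 36.0%, 30.3% and 17.5% of all tested genes in these 3 comparisons. The 20-month call was lost when libraries were scaled to equal sums (adjusted p = 0.104), and without the 3 libraries numbered 3 it was 0.0502. Its log2 fold change at 20 months was 0.61 in the libraries numbered 1 and 2 and 0.69 in those numbered 3. The genes nearest in profile to Ppara over the 9 libraries were Hadhb (0.0992) and Etfdh (0.104), both enzymes of fatty acid oxidation, and Ephx2 (0.106).

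Of 24 known PPAR target genes of fatty acid use 13 rose and 0 fell at 20 against 2 months, where 9.42% of all genes rose and 7.13% fell. With libraries scaled to equal sums 5 of the 24 were called. The list had a median log2 fold change of 0.42, with 23 of 24 above 0, where the median of all tested genes was -0.02. Pdk4, the kinase that holds back glucose oxidation, measured 5262, 6353 and 3345 normalized read counts at 2 months and 39564, 18994 and 38187 at 20 months, a rise of 6.35-fold (adjusted p = 0.000288). It measured 6979, 16592 and 7668 at 28 months, above every 2-m library, with an adjusted p of 0.0702. Ucp3, a mitochondrial carrier induced by fatty acids, measured 1339.6, 1480.2 and 1221 at 2 months, 5688, 3013 and 6338 at 20 months, and 1178, 2112 and 1304 at 28 months. It rose 3.55-fold at 20 months (adjusted p = 0.000496) and fell between 20 and 28 months (log2 fold change -1.69, adjusted p = 0.0114), the only gene of the list to do so.

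At 28 against 2 months 3 of the 24 rose, against 7.53% of all genes (1 by edgeR, 1 with libraries scaled to equal sums and 5 with a term for the libraries numbered 3), among them the fatty acid transporter Cd36 (log2 fold change 0.54, adjusted p = 0.0471) and Ech1 (0.44, adjusted p = 0.0482). The median of the list was then 0.13, and 28 against 20 months it was -0.24 with 1 of 24 above 0. The second 20-m library was the lowest of its age and the second 28-m library the highest of its age for Ppara, Pdk4 and Ucp3 alike.

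Ppard, the second PPAR of muscle, did not pass the test. Its values were 1685, 1584 and 1555 normalized read counts at 2 months, 1496, 1652 and 1453 at 20 months, and 1630.1, 1440.4 and 1385 at 28 months, and the ages overlapped. The log2 fold changes were -0.07 (95% CI -0.26 to 0.12) and -0.12 (-0.31 to 0.08) at 20 and 28 against 2 months.

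Ppargc1a, at chr5:51454249-51567725 (minus strand, GRCm38), is the coactivator most responsive to exercise and cold. The 1 promoter that RefSeq gives for it is poor in CpGs, with 5 in 300 bases (again in capitals, minus strand).
Ppargc1a, chr5:51567676-51567975: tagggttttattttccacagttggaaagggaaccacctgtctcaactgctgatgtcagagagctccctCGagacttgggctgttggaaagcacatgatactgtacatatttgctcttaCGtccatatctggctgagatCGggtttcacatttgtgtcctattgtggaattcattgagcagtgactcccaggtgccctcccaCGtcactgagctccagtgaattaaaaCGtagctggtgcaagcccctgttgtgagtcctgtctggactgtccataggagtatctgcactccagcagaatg
Its normalized read counts were 1473, 1741 and 1301 at 2 months, 1989, 1831 and 1645 at 20 months, and 1702, 2055 and 1818 at 28 months. The second 2-m library overlapped the lowest library of each later age, and 4 of the 6 later libraries were above all 2-m libraries. The log2 fold change was 0.28 at 20 months (95% CI 0.03 to 0.53, limma adjusted p = 0.119), 0.31 at 28 months (0.06 to 0.56, adjusted p = 0.0999) and 0.30 with both ages together (0.08 to 0.51, adjusted p = 0.0570). The exact permutation test of the last comparison gave p = 0.0357, unadjusted for the 10 regulators. Ppargc1a was called in 2 of 22 settings at 20 months, in 3 of 22 at 28 months and in 5 of 21 with both ages together. A block for the library number was among the settings that called it at 20 and at 28 months. Leaving out the second 2-m library brought Ppargc1a past the threshold at both ages (adjusted p = 0.0355 at 20 months and 0.0285 at 28 months). The log2 fold changes were 0.25 and 0.22 in the libraries numbered 1 and 2 and 0.34 and 0.48 in those numbered 3. The genes nearest to it in profile were Wbp1 (0.0558), Sptbn1 (0.0718) and Hk2 (0.0768), the last the hexokinase of insulin-responsive muscle.

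Ppargc1b, the paralogue, measured 486, 589 and 393 normalized read counts at 2 months, 531, 589 and 425 at 20 months, and 507, 551 and 359 at 28 months. The ages overlapped almost wholly, and the library numbered 3 was the lowest at each age. The log2 fold change was 0.08 at 20 months (95% CI -0.33 to 0.49) and -0.06 at 28 months (-0.46 to 0.35). Perm1, a muscle protein induced by PGC-1 and the estrogen-related receptors, measured 7413, 10955 and 8592 at 2 months, 11593, 9769 and 12129.9 at 20 months, and 9374, 12682 and 10609 at 28 months. The ages overlapped through the second 2-m library. Its log2 fold change was 0.33 at 20 months (95% CI 0.02 to 0.64, limma adjusted p = 0.139) and 0.28 at 28 months (-0.02 to 0.59, adjusted p = 0.216), and it was called only when the second 2-m library was left out (adjusted p = 0.0257 and 0.0424). Among the 14 promoters that of Perm1 was the only one with the estrogen-related receptor half-site AAGGTCA (4.72% of all promoters, either strand), which lay 202 bases before the start on the opposite strand.

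The 14 promoters were searched on both strands for the motifs of the pathway's own factors. The longer estrogen-related receptor element, the half-site with TN before it, was in 0 of 14 and in 1.28% of all promoters. The PPAR repeat, which is AGGTCA, any base and AGGTCA again, was in 0 of 14 and in 0.0396% of all. The CREB site, TGAC followed by GTCA, was in 0 of 14 and in 1.79% of all. The ETS site, CCGG followed by AAGT, was in 1, that of Tfam, 47 bases before the start, and in 3.89% of all. The E box CAGCTG was in 3, those of Esrra, Esrrb start 2 and Ppard, and in 16.3% of all, and the MEF2 site was in a start of Nrf1 besides that of Esrrg. Such matches describe letters and not bound sites.

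Nrf1 drives nuclear genes of the respiratory chain and of mitochondrial import, and Tfam packs and transcribes the mitochondrial genome. Nrf1 measured 504, 446 and 422 normalized read counts at 2 months, 443, 501 and 411 at 20 months, and 389, 441 and 421 at 28 months, with log2 fold changes of -0.02 (95% CI -0.28 to 0.25) and -0.13 (-0.39 to 0.13) from 2 months. Tfam, at chr10:71225477-71238044, measured 1846, 1736 and 1746 at 2 months and 1655, 1789 and 1865 at 20 months. At 28 months it measured 1399, 1614 and 1466, below every other library. Groups did not overlap for 30.3% of all tested genes at 28 against 2 months and for 17.5% at 28 against 20 months. The difference of Tfam from 2 months was -0.25 on the log2 scale (95% CI -0.44 to -0.07, limma adjusted p = 0.0675). That from 20 months was -0.25 (-0.43 to -0.06, adjusted p = 0.316), so neither passed over all genes. The difference from 2 months was -0.25 in the libraries numbered 1 and 2 and -0.25 in those numbered 3. That from 20 months was -0.20 and -0.35. Tfam was called at 28 against 2 months in 3 of 22 settings, a block for the library number among them. Its smallest adjusted p, 0.0328, came when the second 28-m library was left out.

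Of 19 tested genes for the upkeep and transcription of mitochondrial DNA, 1 fell at 20 months, the topoisomerase Top1mt (log2 fold change -0.34, adjusted p = 0.0455), and 1 fell at 28 months, the polymerase subunit Polg2. Polg2 measured 51.3, 95.2 and 85.9 normalized read counts at 2 months and 41.7, 40.1 and 35.9 at 28 months (log2 fold change -0.92, adjusted p = 0.0483). At these ages 7.13% and 6.24% of all genes fell, and the settings called 0 to 2 and 0 to 1 of the list. The list median was -0.02 and 0.02, beside -0.02 and -0.01 for all genes. Of 31 known PGC-1 and estrogen-related receptor targets of oxidative metabolism, limma called 0 at 20 against 2, 28 against 2 and 28 against 20 months, with 6, 3 and 1 at an unadjusted p under 0.05 and 0 called by edgeR in each. With both later ages joined 1 of the 31 fell, and a term for the libraries numbered 3 called 2 at 20 months. Their median log2 fold changes were -0.06, -0.08 and 0.00, beside -0.02, -0.01 and 0.00 for all genes. Among these, named after their values were seen, citrate synthase (Cs) differed by -0.03 and -0.03, the ATP synthase subunit Atp5b by -0.05 and 0.00, and cytochrome c (Cycs) by -0.25 and -0.22 at 20 and 28 months, the last with limma adjusted p of 0.101 and 0.159. Myoglobin (Mb), also a gene of oxidative fibres, had the largest positive difference of the list at 20 months, 0.68 (adjusted p = 0.0953).

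**Figure D4:**
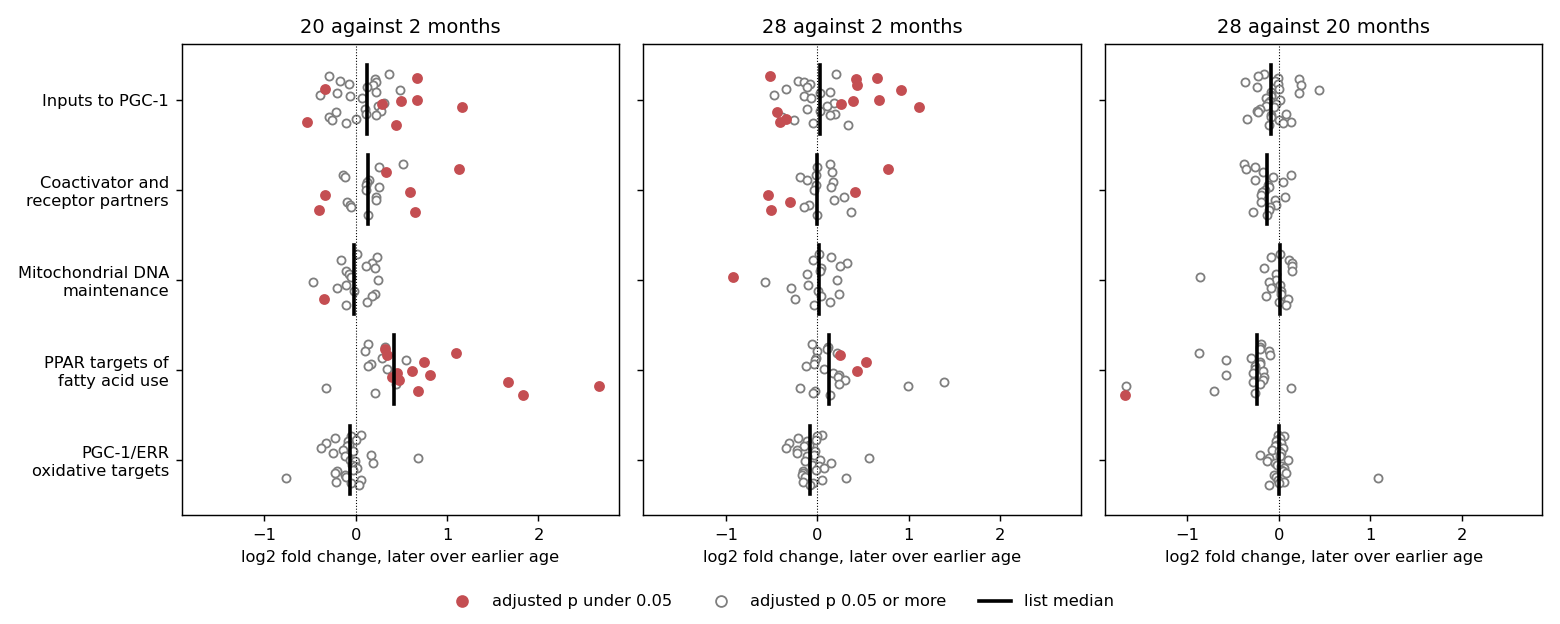
log2 fold change (horizontal axes, later over earlier age) of each tested gene in 5 lists around the regulators, in 3 comparisons, with the list median as a black bar and genes at an adjusted p under 0.05 filled. The PPAR targets lie to the right of 0 at 20 against 2 months (median 0.42) and to the left at 28 against 20 months (median -0.24), while the oxidative targets have no filled point.

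Upstream of PGC-1 act kinases, calcium-responsive factors and repressors. Of 33 such genes 6 rose and 2 fell at 20 months, and 8 rose and 4 fell at 28 months, while limma called 0 between 28 and 20 months (6 at an unadjusted p under 0.05, 0 by edgeR). Of all genes 9.42% rose and 7.13% fell at 20 months and 7.53% rose and 6.24% fell at 28 months. The count of this list ran from 3 to 15 at 20 months and from 4 to 15 at 28 months over the settings tried. The largest rise was that of Nrip1 (RIP140), a corepressor of nuclear receptors at oxidative genes, which measured 577, 767 and 567 normalized read counts at 2 months, 1541, 1603 and 1138 at 20 months, and 1736, 1221 and 1191 at 28 months. It rose 2.24-fold (adjusted p = 0.000862) and 2.16-fold (adjusted p = 0.00120). The factor Mef2a rose 1.59-fold and 1.60-fold, the calcium-dependent kinase subunit Camk2b 1.59-fold and 1.57-fold, and the class II deacetylase Hdac4, which holds MEF2 in check, 1.89-fold at 28 months (adjusted p = 0.00616). Camk2a (log2 fold change -0.52), the calcineurin subunit Ppp3r1 (-0.44) and the AMP-activated kinase subunit Prkag2 (-0.40) fell at 28 months, and Prkag2 (-0.53) and the CREB coactivator Crtc3 (-0.34) fell at 20 months.

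Among 21 other partners of the coactivators 4 rose and 2 fell at 20 months, and 2 rose and 3 fell at 28 months; limma called 0 between 28 and 20 months (6 at an unadjusted p under 0.05, 0 by edgeR). Set against the same shares of all genes, 2 of 21 upward at 28 months is near the 7.53%, and the settings called 2 to 8 of the list at 20 months and 1 to 6 at 28 months. Foxo1, a factor of fasting and atrophy, measured 1204, 1225 and 1092 normalized read counts at 2 months, 2871, 2237 and 2624 at 20 months, and 2224, 1969 and 1842 at 28 months. It rose 2.19-fold at 20 months (adjusted p = 3.93e-05) and 1.71-fold at 28 months (adjusted p = 0.000485), with all later libraries above all 2-m libraries. The thyroid hormone receptors went opposite ways at 20 months, Thrb by 0.65 and Thra by -0.40 on the log2 scale. Nfe2l2 rose by 0.60 and 0.42 at 20 and 28 months. The clock repressor Nr1d1 fell at both ages (-0.34 and -0.54), and Rxra, the partner with which PPARs bind DNA, fell at 28 months (-0.29, adjusted p = 0.0253).

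DNA methylation at the starts of the regulators was read from the MBD-seq table, as the normalized reads in the 500-base bins that touch 500 bases on either side of a start. RefSeq promoters of 9 of the 10 regulators gave 14 starts. Log2 ratios between ages, and the counts of starts past 2-fold, had 1 added to both normalized values, while folds are plain ratios. Ages could not be tested against each other with 1 pool each. The intervals below are exact Poisson 95% intervals that cover counting error only and take every count as independent. The counts on bins exceed the number of reads that the paper gives per age group, so a fragment may have been counted more than once. The intervals can therefore be too narrow. In muscle the starts were lightly captured, with a median of 14.1 normalized reads at 2 months against 22.7 over all 32851 starts. At 28 months 5 of the 14 were higher by over 2-fold and 0 lower, where 31.4% of all starts were higher and 6.71% lower. Within 1000 bases on either side, a count added after the data were seen, 2 of the 14 were higher and 0 lower, against 21.7% and 4.58% of all starts. The median log2 ratio of 28 to 2 months was 0.56 over the 14 starts and 0.33 over all, and that of 20 to 2 months was 0.12 and -0.06. Over the settings tried the median of the 14 starts ran from 0.11 to 1.00 at 28 months and from -0.16 to 0.23 at 20 months, where a wider window turned its sign.

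At Ppargc1a the muscle value went from 45.5 normalized reads (95% interval 33.8 to 59.97) at 2 months to 11.8 (6.44 to 19.8) at 20 months and 48.4 (38.2 to 60.6) at 28 months, so that the 20-m pool alone was low. In T cells the same start gave 82.2, 54.8 and 68.7. The 4 starts of Esrrg, whose transcript rose in muscle, gave 9.10, 34.6, 10.9 and 16.4 normalized reads in 2-m muscle, 7.58, 32.8, 19.4 and 10.1 in 20-m muscle, and 19.8, 25.5, 14.0 and 25.5 in 28-m muscle. The log2 ratios of 28 to 2 months at these starts were 1.04, -0.42, 0.33 and 0.61. The direction at starts 1 and 3 depended on the window, since within 1000 bases the normalized reads went from 62.8 to 38.9 and from 68.2 to 47.2 between 2 and 28 months. Starts of all genes that began at a like level in 2-m muscle (within 0.25 on the log2 scale) had medians of 1.01, 0.16, 0.98 and 0.67.

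In splenic T cells all 4 starts of Esrrg held more captured DNA at 20 and 28 months than at 2 months. Start 1 measured 19.3 normalized reads (95% interval 11.6 to 30.1) at 2 months, 184 (156 to 215) at 20 months and 229 (196 to 265) at 28 months. Start 2 measured 29.4, 90.0 and 127, and start 3, whose window shares bins with that of start 2, measured 4.06, 35.3 and 55.5. Start 4, the farthest downstream of them, measured 18.3, 65.7 and 205. Each was higher again in the 28-m pool than in the 20-m pool, and the ratio of 28 to 2 months was 4.31 to 13.7-fold. At 20 months 5 of the 14 starts of the regulators were higher by over 2-fold in T cells and 1 lower, where 16.6% of all starts were higher and 9.57% lower. At 28 months 7 of the 14 were higher and 3 lower, against 17.4% and 12.5% of all starts. Esrrg alone gave 4 of the starts that were higher at each age, 2 of them with shared bins, and Esrra, with 0 reads at 2 months, gave another, so these counts rest largely on 1 gene. Within 1000 bases 4 of the 14 were higher and 0 lower at 20 months, against 11.4% and 5.24% of all starts, and 6 were higher and 0 lower at 28 months, against 12.9% and 7.68%. In this window the starts of Esrrg went from between 29.4 and 41.6 normalized reads at 2 months to between 137 and 305 at 28 months. The log2 ratios of the Esrrg starts lay at the 94.7th to 99.3rd percentile of starts with a like level in 2-m T cells at 28 months, and at the 94.4th to 99.6th at 20 months. Start 2 of Esrrb went from 15.2 and 20.7 to 108 at 28 months, while its start 1 gave 49.7, 31.6 and 64.8. RNA of T cells was not measured, so the methylation values of T cells have no transcript beside them.

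**Figure D5:**
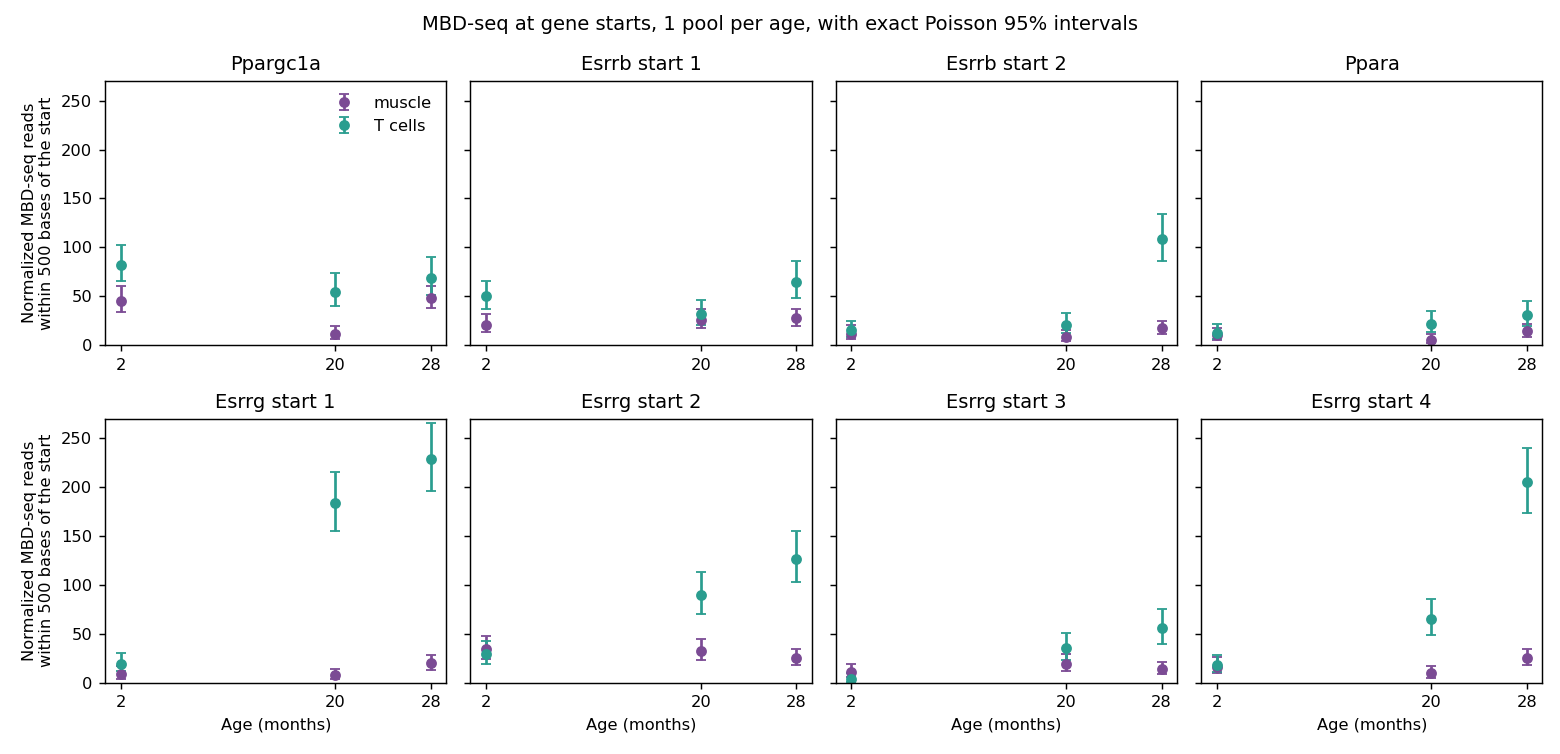
Normalized MBD-seq reads within 500 bases of a start (vertical axes, from 0) in muscle and in T cells against age in months, for Ppargc1a, Esrrb, Ppara and Esrrg, 1 pool per point with exact Poisson 95% intervals. T-cell values of the 4 Esrrg starts step up at 20 and 28 months, reaching 229 at start 1 and 205 at start 4, while the muscle values of all starts shown stay below 50.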

How the data were processed

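RNA of hindlimb muscle from 9 female mice (3 per age, 1 library each, poly-A selected, kit without strand) was sequenced, and MBD-seq was made from DNA of 3 mice pooled per age. Per the study's methods, reads were trimmed with Trim Galore, RNA reads aligned to mm10 with Hisat2 (TopHat is also listed in the submitters' processing notes) and counted per refSeq gene with htseq-count, and MBD reads aligned with Bowtie2 and counted in 500-base bins with bedtools; versions of the aligners and counters are not given in the sources used here. The deposited values are a signal made by the authors, reads divided by 1 DESeq2 size factor per library or pool. They were whole multiples of the value of 1 read for 100% of entries (tolerance 0.001), and the reads so recovered numbered 20203833 to 71115244 per RNA library and 135254786 to 200456498 on bins per MBD pool. The 5 classes of reads assigned to no gene (37.9% to 47.7% of the values of a library) were left out. The 2 muscle capture rounds named in the labels are not told apart by the MBD columns.

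Genes with a mean value of at least 10 were tested with limma 3.58.1 (R 4.3.3) on log2(value + 1), with age as a factor over all 9 libraries, for 3 comparisons of ages and for both later ages against 2 months, with Benjamini-Hochberg adjustment over the 13178 genes and calls at an adjusted p under 0.05. Fold changes are on this log2(value + 1) scale. Recovered reads fitted with edgeR 4.0.16 or DESeq2 1.42.0, other filters, pseudocounts and scalings, a replicate block and leaving out libraries were alternatives. The limma step was tested on simulated data. Sequences and exon lengths are from RefSeq, GRCm38.p6, the same assembly as mm10.

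The 10 regulators, 5 pathway lists and 15 marker lists were chosen with earlier results of these data known. Of each pathway list the text names up to 3 called genes with the largest rise and fall at 20 and at 28 against 2 months, and for Ppargc1a and each called regulator the 3 genes nearest in profile; exceptions are marked, and some genes that this rule selects are not reported here. Exact permutation tests were two-sided. Of the marker lists not given in the report, 1 of 6 macrophage genes fell at 20 months, where 7.13% of all genes fell. Of the 2 cardiac genes tested 1 rose at 28 months, where 7.53% of all genes rose. Endothelial, smooth muscle, brown adipocyte, red blood cell (3 genes tested) and B-cell lists had 0 called by limma.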

Additional observations from a re-analysis of the deposited data

How the results depend on the processing

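No called change of a regulator turned direction in any alternative. Esrrg was called at both later ages in all 22 settings, Esrrb in 21 and Ppara at 20 months in 20 of 22. The losses were Esrrb without the 3 libraries numbered 3 (adjusted p = 0.0620 and 0.0607), and Ppara there (0.0502) and with every library rescaled to the same sum (0.104). Among the 10 regulators, leaving out 1 library gave 3 to 5 calls at 20 months, 2 to 4 at 28 months, 0 to 0 between these ages and 2 to 5 for both later ages together, where over all genes it gave 1081 to 2231, 963 to 1846, 14 to 88 and 1646 to 2850; the highest counts came without the second 2-m library, which added Ppargc1a and Perm1 at both ages, and the lowest of the last came without the first 2-m library, where Ppara was lost. Replicate numbers were not used as pairs in the reported fit, as 3 of 9 same-numbered pairs had a correlation of deviations over 0.1. These 3 pairs were those among the libraries numbered 3 (0.109, 0.150 and 0.161). As 7 of 9 libraries correlated best with their own number, the number carries some shared deviation. The replicate block called 4 regulators at 28 months, adding Ppargc1a and Tfam, and 4 at 20 months, adding Ppargc1a.

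The next 2 alternatives were chosen after seeing the data. A batch term for the libraries numbered 3 called 4 regulators at 28 months, 15 inputs of PGC-1, 2 mitochondrial DNA genes and 2 oxidative targets at 20 months, and 5 PPAR targets at 28 against 2 and 2 at 28 against 20 months. Leaving those 3 libraries out called 1 regulator, Esrrg, at each later age. Rescaling to the same sum called 3 and 4 inputs, 2 and 1 partners, 0 and 0 mitochondrial DNA genes and 5 and 1 PPAR targets at 20 and 28 months, and 2 PPAR targets at 28 against 20 months. edgeR called 1 PPAR target at 28 months. Over all genes the count ran from 586 to 3000 at 20 months (2181 as reported), 554 to 2529 at 28 months (1814), 11 to 228 between these ages (50) and 673 to 3370 for both together (2649). The causes were not tested.

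The median MBD ratio of 28 to 2 months in muscle over the 14 starts ran from 0.11 to 1.00 (log2), and that of 20 to 2 months from -0.16 to 0.23, where the sign turned with the wider window (1 kilobase). With 3 mice per age and 1 DNA pool per age, small changes are mostly beyond these data: in data simulated for 20 against 2 months, 40% of the genes changed 1.5-fold were called and 90% of those changed 2-fold.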
